A study of Homo sapiens with 9 samples.

Results

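Compound 32 was compared with DMSO, the control, in HEYA8 cells, a human ovarian cancer line that the labels describe as high-grade serous and wild type. The comparison takes 6 of the 9 libraries of the series, 3 per group, and all genes of its count table. The cells were grown in DMEM with 10% FBS to 70% confluency and received DMSO or compound 32 for 24 h, and the labels give 1 day for all 6 samples. Messenger RNA was captured on oligo(dT) beads and read as cDNA primed with random hexamers. Neither the dose nor the structure of compound 32 is stated in these sources. The DMSO samples are named biological replicates in the series text and the compound 32 samples are not, so p-values may reflect technical spread only.

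As background, cells short of oxygen stabilise the hypoxia-inducible factors, which bind a short DNA core and switch on glucose uptake, glycolysis and growth factor genes. Proliferating cells, for their part, read out the cell cycle in waves: genes of DNA replication are driven by E2F factors before S phase, and genes of mitosis peak later through promoters with CCAAT boxes and cell cycle homology regions. The p53 protein induces the inhibitor CDKN1A, which holds cells back from division. Genes of hypoxia and glycolysis, of mitosis and of the p53 response are only summarised here: all 47 tested of the first list rose, 50 of 57 of the second fell and 24 of 30 of the third rose, with 5 mitotic genes and 1 target of p53 called the other way. Over all genes tested 22.4% were called higher and 21.5% lower. The count of mitotic genes called higher was 3 without DMSO replicate 3 and 3 without compound 32 replicate 3. The account below is of the rest of the transcriptome.

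Compound 32 changed a large share of the expressed genes, mostly by small amounts. Of 58735 genes in the table, 14517 passed the filter on low counts. edgeR's quasi-likelihood F test called 3258 of them higher (22.4% of the genes tested) and 3114 lower (21.5%) at a Benjamini-Hochberg adjusted p under 0.05. Together these are 43.9%. At 2-fold or more there were 337 higher (2.32%) and 184 lower (1.27%), 3.59% in all. The median absolute log2 fold change over all genes tested was 0.209, and the median was 0.002. All 3 libraries of one group lay outside the range of the other in 50.6% of the genes, and 3069 called genes rose (21.1%) and 2925 fell (20.1%) without overlap. With the 3 sunitinib libraries of the series in the same fit the calls were 1830 and 1571, and no gene called in both fits had opposite signs. Below, levels are CPM, read counts after scaling for library size, the ± after a log2 fold change is its standard error, and n is 3 libraries per group. Groups did not overlap for any gene named with a call, ATF4, CASP8 and FN1 excepted.

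The DMSO libraries held 15.6 to 16.9 M counts and the compound 32 libraries 15.7 to 17 M. The first principal component separated the groups and took 58.5% of the variance. Mitochondrial transcripts made up 3.42 to 3.58% of counts in DMSO and 3.84 to 3.92% with compound 32, and ribosomal protein genes 3.78 to 4.08% and 3.71 to 3.88%. The part of this difference in mitochondrial share in the results was not tested. Of 16 markers of ovarian carcinoma and epithelia, 9 had a mean under 1 CPM over the 6 libraries, among them MUC16, and the epithelial cadherin CDH1 was at 0 in all 6 libraries. PAX8, a lineage factor of Müllerian epithelium, was present and went from 130.4 ± 3.99 to 115 ± 1.48 CPM (SD, n = 3), and the keratin KRT8 went from 686 ± 18.9 to 852 ± 33.6 CPM (SD, n = 3). Of 16 blood and endothelial markers 14 had such a mean, with summed levels of 9.175 to 11.51 CPM in DMSO and 7.114 to 8.136 CPM with compound 32. In these bulk samples, fewer cells in a phase or state and less RNA per cell cannot be told apart.

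**Figure D1:**
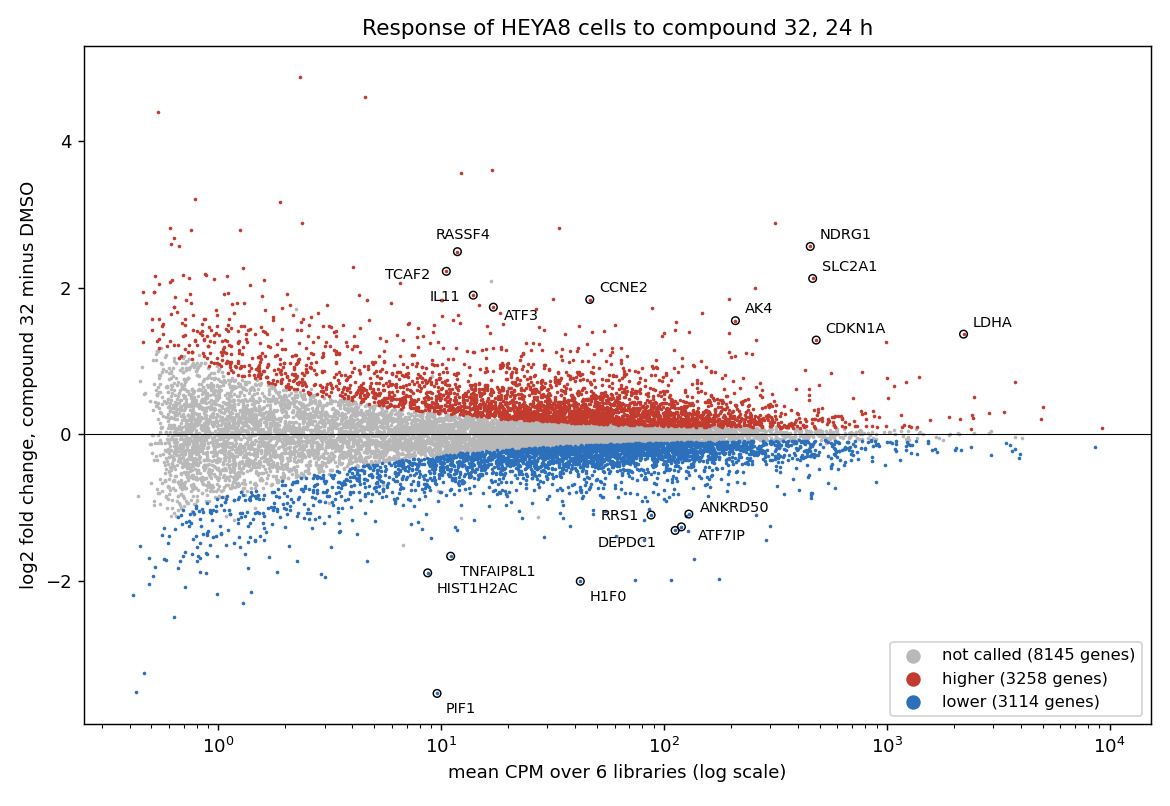
Log2 fold change (compound 32 minus DMSO) of each of the 14517 genes tested against its mean CPM over 6 libraries, on a log scale. Red points were called higher and blue points lower, grey points were not called, and 18 named genes are ringed: PIF1 lies lowest of these at -3.54 and NDRG1 highest at 2.56.

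Protein-coding genes were ranked by change if called, with a mean of at least 5 CPM and no overlap between the groups. Outside the hypoxia, mitosis and p53 lists, the 15 largest rises among them were in genes of several functions. Those lists hold 50, 57 and 30 symbols, and whether genes outside them belong to the same responses was not tested. RASSF4, a Ras-association domain protein, read 3.65, 3.25 and 3.82 CPM in the DMSO libraries and 19.2, 21.8 and 19.3 CPM with compound 32, a log2 fold change of 2.49 ± 0.13. TCAF2, a partner of TRP ion channels, read 3.77, 3.13 and 4.26 CPM in the DMSO libraries and 17.7, 18.7 and 15.7 CPM with compound 32 (2.22 ± 0.13). The cytokine IL11, of the interleukin-6 family, read 4.93, 7.15 and 5.54 CPM in the DMSO libraries and 22.5, 21.1 and 22.3 CPM with compound 32 (1.90 ± 0.12). In all 3 genes the lowest compound 32 library was far above the highest DMSO library, though absence of overlap was a condition of the choice. Growth factor and phosphatase genes followed: PDGFB, a ligand of the PDGF receptors, changed by 1.80 ± 0.18 and PTPRR, a phosphatase of MAP kinases, by 1.53 ± 0.11. Stress and transcription factors were ATF3, at 1.73 ± 0.099, and the repressor PRDM1, at 1.51 ± 0.15. AK4, an adenylate kinase of the mitochondrial matrix, read 99.7, 103 and 117 CPM in the DMSO libraries and 314, 322 and 299 CPM with compound 32 (1.55 ± 0.046). PPP1R3G, which brings protein phosphatase 1 to glycogen, changed by 1.61 ± 0.12. The other rises were in SPAG4, a nuclear envelope protein (1.84 ± 0.14), RRAD, a small GTPase (1.77 ± 0.11), TMEM45A (1.63 ± 0.12), EPHA4, a receptor for ephrins (1.55 ± 0.12), and KCTD11, an adaptor of a ubiquitin ligase (1.51 ± 0.098). The cyclin CCNE2 is described with the genes of S phase. The edgeR adjusted p of these 15 genes was at most 1.85e-11, that of PRDM1.

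The steepest fall of all 14517 genes was that of PIF1, a DNA helicase that unwinds G-quadruplexes and removes telomerase from chromosome ends (ENSG00000140451, chromosome 15, 64815632 to 64825668, minus strand, GRCh38). PIF1 read 17.1, 18.4 and 17.4 CPM in the DMSO libraries and 1.40, 1.05 and 2.06 CPM with compound 32, a log2 fold change of -3.54 ± 0.16 (edgeR adjusted p = 4.37e-23). H1F0, a replacement linker histone (ENSG00000189060, chromosome 22, 37805093 to 37807436, plus strand), read 67.2, 70.0 and 65.1 CPM in the DMSO libraries and 16.7, 17.3 and 16.3 CPM with compound 32 (-2.01 ± 0.068). DEPDC1, a cell cycle gene outside the mitosis list, read 165, 160.1 and 155 CPM in the DMSO libraries and 62.9, 63.3 and 66.9 CPM with compound 32 (-1.31 ± 0.047). These 3 genes showed less spread within each group than between the groups, and the largest falls were chosen under the same conditions as the largest rises. BORA, which helps AURKA to activate PLK1, changed by -1.30 ± 0.12, and its exons overlap those of DIS3, which had a value of 0.16 ± 0.043. CNTRL, a centriole protein, changed by -1.26 ± 0.072 and CFAP54, a protein of motile cilia, by -1.27 ± 0.12.

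ATF7IP, a partner of the histone methyltransferase SETDB1, read 173, 159 and 175 CPM in the DMSO libraries and 72.3, 70.0 and 68.7 CPM with compound 32 (-1.27 ± 0.047). RRS1, an assembly factor of the large ribosomal subunit, fell by 1.10 ± 0.051 on the log2 scale. SOCS2, a suppressor of cytokine signalling, changed by -1.18 ± 0.11 and FANCF, of the Fanconi anaemia core complex, by -1.09 ± 0.13. The remaining falls were in the histone gene HIST1H2AC (-1.89 ± 0.14), TNFAIP8L1 (-1.67 ± 0.12), TMEM71 (-1.42 ± 0.13), APOLD1 (-1.18 ± 0.17) and ANKRD50, which acts in endosomal recycling (-1.09 ± 0.047). By edgeR, the largest adjusted p of the 15 falls was 2.33e-07, that of APOLD1. APOLD1 shares exon sequence with DDX47 (-0.17 ± 0.27), and TNFAIP8L1 with MYDGF (-0.034 ± 0.044). It is not known whether reads were counted by strand.

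**Figure D2:**
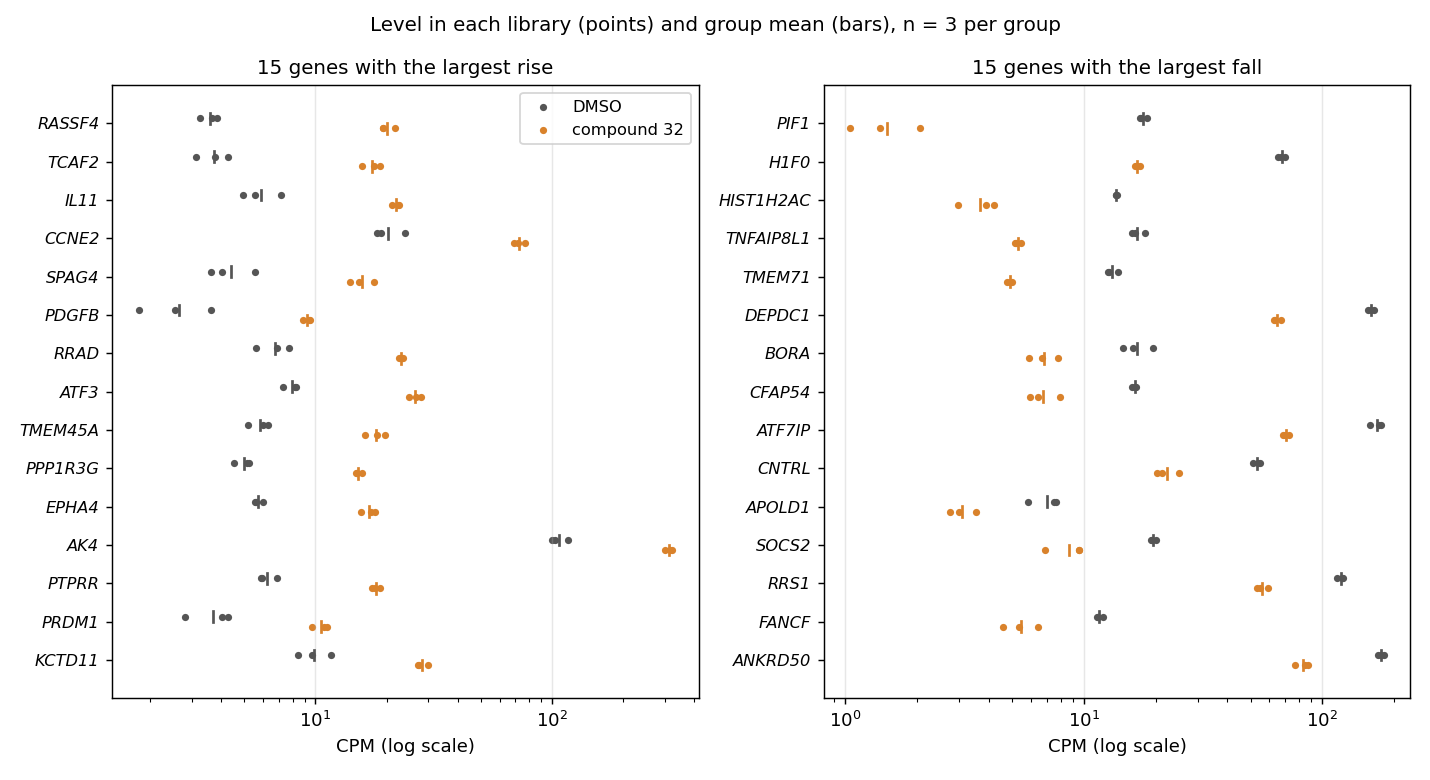
CPM on a log scale in each of 6 libraries for the 15 protein-coding genes that rose most (left) and the 15 that fell most (right) outside the hypoxia, mitosis and p53 lists. Points are libraries, grey for DMSO and orange for compound 32, and short bars are group means (n = 3). Absence of overlap between the groups was a condition for choosing these 30 genes.

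The promoters of the genes that fell most are shown because they carry the letters of the cell cycle homology region. Each window runs from 250 bases before to 50 after the start given by RefSeq (GRCh38.p14), 5′ to 3′ on the gene's strand, and capitals mark TTTGAA or TTCGAA or the reverse complement TTCAAA. Which genes to print was chosen after the matches were seen. BORA and ATF7IP hold 2 matches each and the others 1.
PIF1, chr15:64825598-64825897 (minus strand): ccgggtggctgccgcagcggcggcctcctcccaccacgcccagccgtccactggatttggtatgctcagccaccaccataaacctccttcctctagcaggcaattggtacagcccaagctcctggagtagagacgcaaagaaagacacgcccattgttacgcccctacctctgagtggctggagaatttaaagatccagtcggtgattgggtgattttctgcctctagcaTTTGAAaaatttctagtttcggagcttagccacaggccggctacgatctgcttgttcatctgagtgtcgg
DEPDC1, chr1:68497033-68497332 (minus strand): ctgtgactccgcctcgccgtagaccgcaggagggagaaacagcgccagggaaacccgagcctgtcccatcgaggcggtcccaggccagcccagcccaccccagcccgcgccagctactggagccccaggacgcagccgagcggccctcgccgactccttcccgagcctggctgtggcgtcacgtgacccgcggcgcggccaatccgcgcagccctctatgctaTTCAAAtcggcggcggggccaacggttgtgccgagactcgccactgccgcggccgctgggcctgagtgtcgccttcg
BORA, chr13:72727673-72727972 (plus strand): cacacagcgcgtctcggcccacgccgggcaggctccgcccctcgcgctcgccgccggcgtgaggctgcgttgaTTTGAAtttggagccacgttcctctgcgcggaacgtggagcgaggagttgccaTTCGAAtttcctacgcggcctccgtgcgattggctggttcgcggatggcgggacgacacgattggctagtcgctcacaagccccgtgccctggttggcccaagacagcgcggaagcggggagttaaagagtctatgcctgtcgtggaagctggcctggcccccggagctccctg
ATF7IP, chr12:14365432-14365731 (plus strand): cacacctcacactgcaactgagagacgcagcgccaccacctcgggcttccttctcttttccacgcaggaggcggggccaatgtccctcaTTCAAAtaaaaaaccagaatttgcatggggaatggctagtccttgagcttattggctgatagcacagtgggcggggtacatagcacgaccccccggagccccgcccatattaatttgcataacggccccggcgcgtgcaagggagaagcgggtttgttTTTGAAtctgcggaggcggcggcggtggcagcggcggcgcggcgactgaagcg

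Among the genes that rose most, AK4, PTPRR, PRDM1 and KCTD11 held ACGTG, the only form of the hypoxia response element core that was searched. The windows of AK4 and KCTD11 are printed with these letters in capitals, a choice made after the matches were seen. In AK4 the core reads on both strands of 1 palindrome, CACGTG, which is also the E-box bound by MYC and its relatives, while KCTD11 holds 2 separate cores.
AK4, chr1:65147302-65147601 (plus strand): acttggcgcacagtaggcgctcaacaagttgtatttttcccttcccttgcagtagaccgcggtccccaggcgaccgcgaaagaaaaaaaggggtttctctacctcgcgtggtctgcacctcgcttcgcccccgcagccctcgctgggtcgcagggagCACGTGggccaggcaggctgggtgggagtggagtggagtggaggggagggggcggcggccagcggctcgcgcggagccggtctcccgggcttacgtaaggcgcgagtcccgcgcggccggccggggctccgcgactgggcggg
KCTD11, chr17:7351912-7352211 (plus strand): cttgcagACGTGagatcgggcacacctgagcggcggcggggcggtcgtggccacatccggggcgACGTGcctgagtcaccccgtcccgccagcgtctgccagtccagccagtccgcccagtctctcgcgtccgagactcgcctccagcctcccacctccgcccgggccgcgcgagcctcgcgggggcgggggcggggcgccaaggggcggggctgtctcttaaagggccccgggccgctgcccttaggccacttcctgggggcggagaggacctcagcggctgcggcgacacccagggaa

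A window was matched for 10117 of the 14517 genes tested. TTTGAA or TTCGAA, on either strand, occurred in 11.2% of these windows and in 16.6% of all 27305 windows in the table. Of the largest falls, 8 of 15 genes had a window and 5 of the 8 held it (62.5%), namely the 4 printed and APOLD1. Of the mitosis genes that fell, 28 of 40 with a window held it (70.0%), and of the hypoxia genes that rose 2 of 40 (5.0%). CCAAT, on either strand, occurred in 36.6% of the windows of genes tested, in 7 of the 8 largest falls (87.5%), in 30 of 40 mitosis genes (75.0%) and in 14 of 40 hypoxia genes (35.0%). ACGTG occurred in 27.0% of the windows of genes tested, in 21 of 40 hypoxia genes (52.5%), in 15 of 40 mitosis genes (37.5%), in 4 of 11 of the largest rises (36.4%) and in 3 of the 8 largest falls (37.5%). A match is a description of letters in this window, and no binding was measured.

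**Figure D3:**
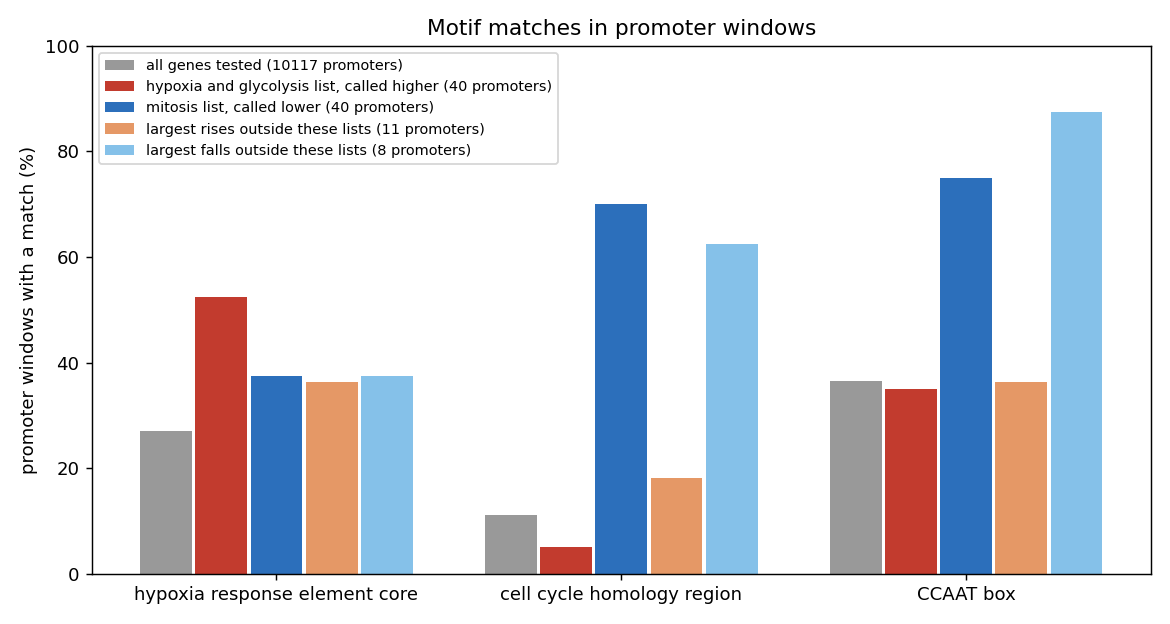
Share of promoter windows (percent, axis from 0 to 100) that hold a motif, on either strand, for all genes tested and for 4 groups of genes. The motifs are the core of the hypoxia response element (searched as ACGTG only), the cell cycle homology region and the CCAAT box. The cell cycle homology region is in 70.0% of the mitosis genes that fell and 62.5% of the largest falls outside the lists, against 11.2% of all genes tested.

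Genes that copy DNA and start S phase went up while the mitotic genes went down. Of 51 genes of replication licensing and the replication fork 37 were called higher (72.5%, against 22.4% of all genes tested) and 4 lower, with a median log2 fold change of 0.28 against 0.002 over all genes. CDC6, which loads the MCM helicase on origins, read 171, 166 and 163 CPM in the DMSO libraries and 281, 285 and 285 CPM with compound 32 (0.77 ± 0.038). PCNA, the sliding clamp of the polymerases, went from 135 ± 2.61 to 231 ± 10.5 CPM (SD, n = 3). Both genes were higher in every compound 32 library. The 4 that fell include DBF4, the activator of the kinase CDC7 (-0.64 ± 0.080), and ORC2, a subunit of the origin recognition complex (-0.38 ± 0.065). The exons of DBF4 overlap those of SLC25A40 (0.26 ± 0.089).

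Of 34 tested E2F factors, cyclins and other regulators of G1 and S phase 19 rose (55.9%, against 22.4% of all genes tested). In this list 6 fell (17.6%, against 21.5%), and the median was 0.27. CCNE2, a cyclin that partners CDK2 at the start of S phase, read 23.9, 18.2 and 18.9 CPM in the DMSO libraries and 71.5, 77.0 and 69.3 CPM with compound 32 (1.84 ± 0.074). INTS8, whose exons overlap with it, was at -0.094 ± 0.047. The activator E2F1 went from 63.8 ± 0.689 to 121 ± 5.04 CPM (SD, n = 3). CKS2, a small subunit of cyclin-dependent kinases, went the other way at -0.91 ± 0.052, and so did E2F5, a repressor-type E2F, at -0.98 ± 0.10. Of 40 genes of nucleotide synthesis 16 rose (40%) and 9 fell (22.5%, near the 21.5% of all genes tested), median 0.08. RRM2, the regulated subunit of ribonucleotide reductase, read 152, 147 and 146 CPM in the DMSO libraries and 323, 317 and 318 CPM with compound 32 (1.11 ± 0.038), and thymidine kinase TK1 changed by 0.70 ± 0.040. The purine synthesis enzymes PFAS (-0.40 ± 0.042) and ATIC (-0.27 ± 0.043) fell. When the sunitinib libraries took part, 10 genes of this list rose and 2 fell, and PFAS and ATIC were not called. None of the adjusted p-values from edgeR for the genes named for S phase and nucleotides was above 4.88e-06, that of ORC2.

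Of 46 genes of homologous recombination and the Fanconi anaemia pathway 24 were higher (52.2%, against 22.4% of all genes tested) and 6 lower, median 0.20. BRIP1, a helicase that binds BRCA1, read 29.5, 32.0 and 29.4 CPM in the DMSO libraries and 58.1, 62.9 and 61.6 CPM with compound 32 (1.01 ± 0.063), and the exonuclease EXO1 changed by 0.99 ± 0.064. FANCF read 11.5, 11.4 and 12.0 CPM in the DMSO libraries and 6.45, 4.58 and 5.35 CPM with compound 32, the largest fall of that list. NBN, of the MRN complex that binds broken ends, changed by -0.22 ± 0.040. In the other repair pathways 14 of 60 genes rose (23.3%, near the share of all genes) and 21 fell (35%, against 21.5%), median -0.06, and the difference between the repair lists was not tested. DDB2, a sensor of ultraviolet damage and a p53 target, rose by 0.79 ± 0.057 and USP1, a deubiquitinase of the Fanconi pathway, by 0.40 ± 0.040. LIG3, the DNA ligase of mitochondria and single-strand breaks, went from 33.7 ± 1.23 to 17.6 ± 1.79 CPM (SD, n = 3), and its exons overlap those of RFFL (0.18 ± 0.091). SHLD2, of the shieldin complex, changed by -0.49 ± 0.054. Without compound 32 replicate 2 the genes of these other pathways that rose were 9, and with the sunitinib libraries in the fit 7 rose and 8 fell, with 3 lower in homologous recombination. The edgeR adjusted p of the repair genes named was at most 1.8e-05, that of NBN.

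Of 14 tested DNA helicases and related enzymes of the PIF1, RecQ and iron-sulphur families 4 rose (28.6%) and 3 fell (21.4%), near the 22.4% and 21.5% of all genes tested, with a median of -0.07. DDX11 (0.35 ± 0.046) and RECQL (0.24 ± 0.039) rose, and SMARCAL1, which remodels stalled forks, fell by 0.35 ± 0.071 on the log2 scale (edgeR adjusted p = 6.6e-05). PIF1 was the only one of the 14 called at 2-fold or more.

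Transcripts of replication-dependent histones normally end in a stem-loop without a poly(A) tail. Only 16 of the 47 listed genes passed the filter on polyadenylated RNA, 13 of these were called lower (81.2%, against 21.5% of all genes tested) and 0 higher, with a median of -1.18. HIST1H2AC, an H2A gene, read 13.8, 13.7 and 13.6 CPM in the DMSO libraries and 4.21, 2.97 and 3.88 CPM with compound 32 (-1.89 ± 0.14). HIST1H2BK, an H2B gene, read 18.9, 22.1 and 20.9 CPM in the DMSO libraries and 13.3, 12.8 and 13.5 CPM with compound 32 (-0.65 ± 0.094). Most members were scarce: with a mean of at least 5 CPM required, 3 were called lower and the median was -0.85, and it was -1.54 without compound 32 replicate 1. Histone genes are near-identical copies, so how reads were divided among them is uncertain.

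Replacement histones and the factors that handle histones moved both ways. Of 27 tested 8 were higher (29.6%, against 22.4% of all genes tested) and 9 lower (33.3%, against 21.5%), median -0.06. Besides H1F0, the variant H2AFX, which is phosphorylated at DNA breaks, fell from 189.3 to 117.1 CPM (-0.69 ± 0.042). The histone chaperones ASF1B (0.81 ± 0.047) and CHAF1B (0.68 ± 0.062), which assemble chromatin behind the fork, rose. Of 62 chromatin modifiers 18 rose and 19 fell, median -0.06, and 6 fell with the sunitinib libraries in the fit. The deacetylase HDAC5 read 25.8, 25.9 and 26.1 CPM in the DMSO libraries and 51.4, 52.5 and 53.3 CPM with compound 32 (1.01 ± 0.065), and EZH2, the methyltransferase of Polycomb, changed by 0.65 ± 0.056. HMGB3 (-0.75 ± 0.064) and the lamin LMNB2 (-0.27 ± 0.033) fell, LMNB2 without a call when the sunitinib libraries took part. By edgeR, the largest adjusted p of the genes named was 3.23e-09, that of LMNB2.

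Genes that build ribosomes fell as a group. Of 50 genes of ribosome biogenesis and RNA polymerase I 38 were called lower (76%, against 21.5% of all genes tested) and 1 higher, with a median of -0.33. RRS1 read 115, 123 and 121 CPM in the DMSO libraries and 58.9, 54.6 and 53.3 CPM with compound 32. DDX21, a helicase of ribosomal RNA processing, read 579.6, 572 and 588 CPM in the DMSO libraries and 424, 418 and 410.1 CPM with compound 32 (-0.47 ± 0.033). FBL, the methyltransferase of box C/D particles, was the 1 called higher (0.15 ± 0.046, edgeR adjusted p = 0.00576), and it was not called without DMSO replicate 1, without compound 32 replicate 2 or with the sunitinib libraries in the fit. MYC, a driver of ribosome genes, read 355, 372 and 371 CPM in the DMSO libraries and 265, 269 and 276 CPM with compound 32 (-0.44 ± 0.036), and its antagonists MNT (0.44 ± 0.074) and MXD1 (0.43 ± 0.087) rose, while MGA fell by 0.61 ± 0.054 on the log2 scale. In this network of 10 tested genes 5 rose and 3 fell, median 0.11, or 3 higher with the sunitinib libraries in the fit.

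In the list of named long noncoding RNAs 20 of 37 were lower (54.1%) and 7 higher, median -0.24, and 4 rose when a mean of 5 CPM was required. Over all 1418 long noncoding genes tested 10.8% rose and 12.8% fell. SNHG4 read 66.8, 62.4 and 64.7 CPM in the DMSO libraries and 32.9, 29.1 and 33.0 CPM with compound 32 (-1.03 ± 0.063) and SNHG3 changed by -0.74 ± 0.061. Both are hosts of small nucleolar RNAs, and a count made after the values were seen found 10 SNHG genes among the 20. Exons of SNHG3 overlap RCC1 (-0.25 ± 0.042) and those of SNHG4 overlap SIL1 (-0.22 ± 0.076). LINC00958 fell, at -0.69 ± 0.057. NEAT1, the scaffold of paraspeckles, was chosen after its values were seen and read 385, 419 and 456 CPM in the DMSO libraries and 183, 184 and 160.4 CPM with compound 32 (-1.26 ± 0.071, edgeR adjusted p = 5.04e-07). Higher were MIR210HG, the host of the hypoxia-induced miR-210 (4.61 ± 0.28), CYTOR (0.39 ± 0.065), LINC02310 (2.06 ± 0.17), SLC9A3-AS1 (1.18 ± 0.12) and AL161431.1 (0.56 ± 0.058). MIR210HG read 0.128, 0.709 and 0.191 CPM in the DMSO libraries and 7.72, 10.1 and 8.41 CPM with compound 32. With the sunitinib libraries in the fit 9 of the named list fell.

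Of 33 splicing kinases and SR proteins 21 fell (63.6%, against 21.5% of all genes tested) and 4 rose, median -0.18. The splicing factor SRSF1 went from 192 ± 2.19 to 119.5 ± 4.56 CPM (SD, n = 3) and HNRNPA1 changed by -0.42 ± 0.031. The kinases CLK1 (0.25 ± 0.061) and CLK3 (0.21 ± 0.058), which phosphorylate SR proteins, rose. Of 29 heat shock chaperones 14 fell (48.3%) and 3 rose, median -0.10, led by HSP90AA1 at -0.33 ± 0.028 and HSPA8 at -0.27 ± 0.028, with DNAJB4 higher at 0.57 ± 0.054. Of 35 endoplasmic reticulum stress genes 12 were lower and 7 higher, median -0.03. The chaperone HSPA5 read 3243, 3172 and 3246 CPM in the DMSO libraries and 2760, 2680 and 2517 CPM with compound 32 (-0.28 ± 0.031) and HYOU1 changed by -0.33 ± 0.035, while P4HB, a disulfide isomerase and prolyl hydroxylase subunit, rose by 0.49 ± 0.032 and EDEM1 by 0.47 ± 0.043. Of 38 proteasome genes 10 were lower (26.3%, against 21.5% of all genes tested), with PSMD11 at -0.26 ± 0.040 and PSME3 at -0.20 ± 0.036. PSMD14 was the 1 called higher (0.21 ± 0.043), 2.63% of the list against 22.4% of all genes tested. Proteasome genes higher were 4 without DMSO replicate 2 and 2 without compound 32 replicate 2, and heat shock genes higher 1 without compound 32 replicate 3. Splicing genes higher were 2 without DMSO replicate 1. When the sunitinib libraries took part, 8 splicing, 5 heat shock, 4 endoplasmic reticulum and 2 proteasome genes fell, 1, 1, 3 and 0 rose, and HSPA8, CLK1 and PSMD14 were not called. None of the adjusted p-values from edgeR for the genes named was above 0.00296, that of CLK3.

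Of 32 genes of glycogen and other sugar branches beyond glycolysis 13 rose (40.6%, against 22.4% of all genes tested) and 3 fell, median 0.10, and 5 fell without compound 32 replicate 3. PPP1R3G read 5.25, 5.14 and 4.52 CPM in the DMSO libraries and 14.9, 14.9 and 15.7 CPM with compound 32. Phosphoglucomutase PGM1 read 59.8, 58.4 and 64.6 CPM in the DMSO libraries and 119, 123 and 127 CPM with compound 32 (1.02 ± 0.050), and exons of PGM1 overlap ITGB3BP (0.40 ± 0.064). Glycogen synthase GYS1 went from 72.6 ± 6.13 to 125 ± 3.47 CPM (SD, n = 3). GPD1L (-0.51 ± 0.076) and PGM2 (-0.30 ± 0.045), of side branches, fell. TXNIP, a glucose-responsive arrestin that limits glucose uptake, read 18.2, 15.7 and 13.2 CPM in the DMSO libraries and 39.7, 38.9 and 47.5 CPM with compound 32 (1.42 ± 0.093), and its relative ARRDC3 changed by 1.15 ± 0.081. Of the 6 tested genes in the TXNIP list 5 rose, or 3 with the sunitinib libraries in the fit. The other one, MLX, was called lower (-0.16 ± 0.058), a call lost with DESeq2 and without DMSO replicate 1, DMSO replicate 2 or compound 32 replicate 2. The edgeR adjusted p of the other genes named was at most 5.02e-07, that of PGM2.

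Mitochondrial metabolism showed no common direction. Of 37 genes of complex I 9 rose (24.3%, near the 22.4% of all genes tested) and 4 fell (10.8%, against 21.5%), median 0.04. NDUFB2 was at 0.32 ± 0.070 and NDUFA8 at 0.25 ± 0.061, against NDUFB10 at -0.25 ± 0.069. Of 34 genes of complexes III to V 11 rose and 2 fell, median 0.07, led by COX8A (0.30 ± 0.067) and UQCRH (0.20 ± 0.044), with ATP5F1A lower (-0.14 ± 0.037). The other one lower, ATP5PB (-0.094 ± 0.039), was not called by DESeq2. Those called higher numbered 4 without DMSO replicate 3, 7 without compound 32 replicate 1 and 7 without compound 32 replicate 3, when 5 genes of complexes III to V fell. Those lower were 1 without DMSO replicate 1, DMSO replicate 3 or compound 32 replicate 1. With the sunitinib libraries in the fit 1 gene of complex I and 1 of complexes III to V rose and 0 fell in both, and of the genes named here NDUFB2 and COX8A were not lost. Among 38 genes of the tricarboxylic acid cycle and pyruvate entry 10 rose and 11 fell, median -0.01, and those lower were 6 without DMSO replicate 3 and 7 without compound 32 replicate 1. When the sunitinib libraries took part, 5 rose and 3 fell. IDH2, the mitochondrial NADP-dependent isocitrate dehydrogenase, read 9.85, 10.6 and 8.91 CPM in the DMSO libraries and 20.4, 21.8 and 23.7 CPM with compound 32 (1.16 ± 0.10). The pyruvate carrier subunit MPC2 changed by 0.60 ± 0.086, and DLD (-0.25 ± 0.048) and ME3 (-0.32 ± 0.064) fell. By edgeR, the largest adjusted p of the genes named was 0.0023, that of NDUFB10, apart from ATP5PB (0.0441).

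Of the 13 messenger RNAs of the mitochondrial genome, 7 rose (53.8%, against 22.4% of all genes tested) and 3 fell (23.1%, against 21.5%). The median was 0.09. MT-CO2 read 1938, 2112 and 2057 CPM in the DMSO libraries and 2850, 2858 and 2985 CPM with compound 32 (0.51 ± 0.031) and MT-CYB changed by 0.23 ± 0.029, while MT-CO3 (-0.22 ± 0.030) and MT-ND2 (-0.21 ± 0.033) fell. These changes stand beside the higher mitochondrial share of counts given above, and with the sunitinib libraries in the fit 0 of the 13 were called.

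The lists of iron genes and of oxygen-dependent enzymes had medians near 0 with members that moved both ways. Of 31 iron genes 10 rose and 9 fell, median 0.01, or 6 and 5 with the sunitinib libraries in the fit. ALAS1, the first enzyme of haem synthesis, read 69.7, 74.5 and 69.8 CPM in the DMSO libraries and 187, 183 and 193 CPM with compound 32 (1.40 ± 0.046). The transferrin receptor TFRC read 964, 891 and 913 CPM in the DMSO libraries and 1531, 1550 and 1453 CPM with compound 32 (0.71 ± 0.033). HMOX1, which degrades haem, rose by 0.71 ± 0.077, and the metalloreductase STEAP1 (-0.82 ± 0.091) and the iron chaperone PCBP1 (-0.34 ± 0.039) fell. Of 52 tested 2-oxoglutarate dioxygenases outside the hypoxia list, enzymes that use iron and oxygen, 14 rose and 12 fell, median 0.02, and 6 rose with the sunitinib libraries in the fit. PLOD1, a collagen lysyl hydroxylase, went from 307 ± 5.06 to 472 ± 18.2 CPM (SD, n = 3) and the demethylase KDM2B changed by 0.53 ± 0.054. RIOX2, a ribosomal oxygenase, changed by -0.77 ± 0.064, with exons that overlap CRYBG3 (0.20 ± 0.11), and KDM4A by -0.42 ± 0.064. Of 20 genes of metallothioneins and zinc transport 7 fell (35%, against 21.5% of all genes tested) and 1 rose, median -0.13. MT1E (-0.53 ± 0.068) and MT2A (-0.19 ± 0.035), metal-binding proteins, fell, and neither was called with the sunitinib libraries in the fit, when 2 of the list fell. The 1 called higher, SLC30A7 (0.16 ± 0.054), was not called without DMSO replicate 2 or compound 32 replicate 1. None of the adjusted p-values from edgeR for the genes named was above 1.93e-05, that of MT2A, apart from SLC30A7 (0.0159).

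Sterol genes rose in most cases, and fatty acid genes moved both ways. Of 34 genes of sterol synthesis and uptake 22 rose (64.7%, against 22.4% of all genes tested) and 4 fell, median 0.24. In the fit with the sunitinib libraries 0 of the list fell. IDI1, an isomerase of the mevalonate pathway, read 107, 126 and 114 CPM in the DMSO libraries and 211, 207 and 209 CPM with compound 32 (0.85 ± 0.046), and STARD4, a carrier of cholesterol, changed by 0.94 ± 0.044. The exporter ABCA1, chosen after its values were seen, read 57.7, 63.6 and 72.3 CPM in the DMSO libraries and 125, 129 and 109.8 CPM with compound 32 (0.91 ± 0.074). Lower were SCAP (-0.26 ± 0.043), which escorts the SREBP factors, and FDFT1 (-0.20 ± 0.040), and neither was called in the fit with the sunitinib libraries. Of 41 genes of fatty acid synthesis and lipid droplets 13 rose and 12 fell, median 0.04, or 6 and 5 with those libraries. ACACA, the rate-limiting carboxylase of fatty acid synthesis, read 231, 217 and 238 CPM in the DMSO libraries and 160.3, 165 and 148 CPM with compound 32 (-0.54 ± 0.043), and the elongase ELOVL6 changed by -0.65 ± 0.053. ACSL3, which activates fatty acids (0.35 ± 0.039), and ABHD5, a co-activator of lipid droplet lipase (0.44 ± 0.065), rose. The edgeR adjusted p of the genes named was at most 4.46e-05, that of FDFT1.

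In the lists of amino acid stress and of serine and one-carbon metabolism, more genes fell than rose. Of 38 targets of ATF4 and amino acid stress genes 15 fell (39.5%, against 21.5% of all genes tested) and 9 rose. The share that rose was 23.7%, near the 22.4% of all genes tested, and the median was -0.09. Of the 15 that fell 9 were aminoacyl-tRNA synthetases, which charge tRNAs, such as MARS (-0.51 ± 0.040) and YARS (-0.43 ± 0.040). ATF4 itself had a value of -0.097 ± 0.040 with overlapping groups (edgeR adjusted p = 0.046). Those that rose were led by ATF3, which read 8.19, 7.32 and 8.27 CPM in the DMSO libraries and 27.9, 26.5 and 24.8 CPM with compound 32, and by VLDLR, a lipoprotein receptor (1.24 ± 0.064). Of 29 genes of serine, one-carbon and asparagine metabolism 10 fell (34.5%) and 6 rose (20.7%), median -0.10. MAT2A, which makes S-adenosylmethionine, read 389.7, 389 and 392 CPM in the DMSO libraries and 269, 269 and 279 CPM with compound 32 (-0.52 ± 0.035), and the mitochondrial folate enzyme MTHFD1L changed by -0.43 ± 0.043. SHMT1, a cytosolic folate enzyme, rose (0.35 ± 0.064). Among 38 NRF2 and glutathione genes 8 rose (21.1%) and 6 fell (15.8%), median 0.03. HMOX1 and SOD2, the mitochondrial superoxide dismutase (0.31 ± 0.046), rose, and the cystine carrier SLC7A11 (-0.51 ± 0.051) and the exporter ABCC4 (-0.26 ± 0.049) fell. With the sunitinib libraries in the fit 8, 6 and 2 genes of these 3 lists fell, and 3 NRF2 genes rose. By edgeR, the largest adjusted p of the genes named, ATF4 apart, was 2.76e-05, that of ABCC4.

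Signalling through ERK switches on its own inhibitors and a set of immediate early genes. Of 38 such genes 27 rose (71.1%, against 22.4% of all genes tested), 7 of them by 2-fold or more, and 2 fell, median 0.32. The phosphatase DUSP1, which switches MAP kinases off, read 55.8, 55.5 and 55.9 CPM in the DMSO libraries and 142, 135 and 147 CPM with compound 32 (1.34 ± 0.049), and DUSP5, a phosphatase of nuclear ERK, changed by 0.95 ± 0.044. SPRY1, an inhibitor of receptor tyrosine kinase signalling, and the orphan nuclear receptor NR4A1 were chosen after their values were seen. SPRY1 read 1.86, 1.30 and 0.954 CPM in the DMSO libraries and 6.26, 6.62 and 7.23 CPM with compound 32 (2.29 ± 0.21), and NR4A1 changed by 1.45 ± 0.15. FOSL1, an AP-1 subunit, went the other way and read 576, 607 and 582 CPM in the DMSO libraries and 322, 333 and 351 CPM with compound 32 (-0.81 ± 0.036). PHLDA1, the other one lower (-0.15 ± 0.036), was not called with the sunitinib libraries in the fit. None of the adjusted p-values from edgeR for the genes named was above 0.000472, that of PHLDA1.

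Receptor genes upstream showed a mixed picture. Of 43 receptor tyrosine kinases 23 passed the filter, 9 rose and 5 fell, median 0.11, or 0.23 with no filter on low counts. AXL, a receptor common in mesenchymal cancer cells, read 1106, 1074 and 1105 CPM in the DMSO libraries and 700.3, 691 and 699.5 CPM with compound 32 (-0.65 ± 0.031), and MET, the receptor of hepatocyte growth factor, changed by -0.40 ± 0.038. The insulin-like growth factor receptor IGF1R (0.58 ± 0.052) and the pseudokinase PTK7 (0.34 ± 0.049) rose. Of 40 ephrins, semaphorins and other guidance genes 20 rose (50%, against 22.4% of all genes tested) and 7 fell, median 0.25. EPHA4 read 5.57, 6.02 and 5.60 CPM in the DMSO libraries and 17.8, 17.1 and 15.6 CPM with compound 32, SEMA7A changed by 0.65 ± 0.037 and SEMA4B by 0.54 ± 0.037. The co-receptors of semaphorins and VEGF fell, NRP2 by 0.68 ± 0.042 and NRP1 by 0.28 ± 0.037 on the log2 scale. When the sunitinib libraries took part, 3 receptor kinases fell and 12 guidance genes rose. The edgeR adjusted p of the genes named was at most 1.42e-07, that of PTK7.

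Of 41 genes in a list of NF-kappaB and inflammatory factors 28 were higher (68.3%, against 22.4% of all genes tested) and 5 lower. The median was 0.39, or 0.29 without compound 32 replicate 1, and 3 fell with the sunitinib libraries in the fit. OSMR, the oncostatin M receptor, read 122, 118 and 124 CPM in the DMSO libraries and 218, 219 and 219.5 CPM with compound 32 (0.86 ± 0.041). TNFAIP3, a feedback inhibitor of NF-kappaB, the chemokine CXCL8 and the growth factor CSF2 were chosen after their values were seen. CXCL8 read 35.8, 39.0 and 35.6 CPM in the DMSO libraries and 83.7, 82.3 and 67.6 CPM with compound 32 (1.08 ± 0.068), TNFAIP3 changed by 1.19 ± 0.092 and CSF2 by 3.17 ± 0.35. CSF2 read 0.320, 0.354 and 0.445 CPM in the DMSO libraries and 3.45, 4.58 and 2.23 CPM with compound 32, the largest rise of the list from a low level. CSF3 fell, and read 8.00, 11.2 and 11.8 CPM in the DMSO libraries and 5.62, 5.01 and 6.17 CPM with compound 32 (-0.88 ± 0.14). Of 49 genes of the interferon response and antigen presentation 18 rose (36.7%) and 7 fell, median 0.10, or 11 higher with the sunitinib libraries in the fit. The stress ligands of natural killer cells ULBP2 (0.90 ± 0.086) and MICB (0.54 ± 0.063) led the rises. IFI16, a DNA sensor (-0.40 ± 0.053), and IFI44L (-1.33 ± 0.21) fell, IFI16 without a call in the fit with the sunitinib libraries. By edgeR, the largest adjusted p of the genes named was 2.16e-06, that of CSF3.

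Of 42 TGF-beta and BMP genes 18 were higher (42.9%, against 22.4% of all genes tested) and 1 lower, median 0.19. Those higher were 11 with the sunitinib libraries in the fit. The genes that rose include antagonists: FSTL3, which binds activin, read 14.8, 15.7 and 14.4 CPM in the DMSO libraries and 28.9, 31.4 and 35.2 CPM with compound 32 (1.09 ± 0.086), and its relative FST, chosen after its values were seen, changed by 1.77 ± 0.23. TGFBI, a matrix protein, changed by 0.55 ± 0.046. The receptor TGFBR2 was the 1 that fell, and read 366, 369 and 369.9 CPM in the DMSO libraries and 285, 285 and 278 CPM with compound 32 (-0.38 ± 0.035). Of 31 targets of YAP and of serum response factor 15 rose (48.4%) and 4 fell, or 2 without DMSO replicate 3, with a median of 0.12. CTGF, a matricellular protein, read 163, 158 and 156 CPM in the DMSO libraries and 349.5, 319 and 348 CPM with compound 32 (1.09 ± 0.040). The Hippo kinase LATS2 changed by 0.69 ± 0.043 and NOV, a relative of CTGF, by -0.44 ± 0.061. Of 42 genes of Notch and Wnt 16 rose (38.1%) and 8 fell, median 0.08, and DESeq2 called 5 lower. Among Wnt ligands WNT5A (0.88 ± 0.075) and WNT3 (0.97 ± 0.091) rose. JAG1, a Notch ligand chosen after its values were seen, rose by 1.02 ± 0.12. The Wnt inhibitor DKK1 went from 119 ± 3.28 to 67.8 ± 2.39 CPM (SD, n = 3), and the receptor FZD2 changed by -0.80 ± 0.068. With the sunitinib libraries in the fit 2 genes of YAP and 2 of Notch and Wnt fell. None of the adjusted p-values from edgeR for the genes named was above 7.16e-08, that of NOV.

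The extracellular matrix and the proteases that act on it rose more often than they fell. Of 69 listed genes 54 passed the filter, 25 rose (46.3%, against 22.4% of all genes tested) and 7 fell, median 0.12. The plasminogen activator PLAU read 740.2, 767 and 728 CPM in the DMSO libraries and 1267, 1249 and 1282 CPM with compound 32 (0.77 ± 0.032), and its receptor PLAUR changed by 0.63 ± 0.041. Tenascin TNC read 432, 429.9 and 458 CPM in the DMSO libraries and 254, 265 and 233 CPM with compound 32 (-0.81 ± 0.040), and the laminin LAMB1 changed by -0.38 ± 0.039. Of 36 tested genes of integrins and junctions 11 rose and 5 fell, median 0.02. The fibronectin receptor subunit ITGA5 rose by 0.33 ± 0.036 and CDH24 by 0.55 ± 0.10, and the cadherin CDH4 (-0.83 ± 0.060) and CLDN11 (-0.40 ± 0.039) fell. When the sunitinib libraries took part, 10 matrix genes rose and 2 fell, and 5 and 3 of the junction genes. Of 18 regulators of the epithelial to mesenchymal transition 3 rose and 3 fell, median -0.10, or 1 lower in that fit. The keratins KRT8 (0.31 ± 0.034) and KRT18 (0.29 ± 0.038), which overlap each other, rose. ZEB1, a repressor of epithelial genes (-0.25 ± 0.048), and vimentin, VIM (-0.12 ± 0.029), fell. VIM was not called with the sunitinib libraries in the fit. The summed level of the 8 mesenchymal markers was 5891 to 6117 CPM in DMSO and 5243 to 5316 CPM with compound 32, and that of the 16 epithelial markers 1231 to 1306 and 1433 to 1545 CPM. Neither list moved one way: of the mesenchymal markers VIM, FN1, ZEB1 and AXL were called lower, SPARC, COL1A1 and COL5A1 higher and CDH2 was not called. Of the 10 epithelial markers tested KRT8, KRT18 and SOX17 were called higher, PAX8 lower and 6 were not called, with a median of -0.15. The edgeR adjusted p of the genes called here was at most 0.00643, that of SOX17.

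Of 38 apoptosis regulators 18 were higher (47.4%, against 22.4% of all genes tested) and 2 lower, median 0.20. Of these 18, BBC3, PMAIP1, FAS and TNFRSF10B are also in the list of p53 targets. APAF1, the core of the apoptosome, read 47.6, 46.3 and 48.9 CPM in the DMSO libraries and 86.4, 86.0 and 81.0 CPM with compound 32 (0.83 ± 0.054). The calls of MCL1 (-0.093 ± 0.032) and CASP8 (-0.17 ± 0.065), the 2 lower, were lost when 1 library or more was left out, and CASP8 had overlapping groups. Those lower were 1 without DMSO replicate 1, 2 or 3 or without compound 32 replicate 1 or 3, and 0 with the sunitinib libraries in the fit. Of 57 autophagy and lysosome genes 13 rose (22.8%) and 12 fell (21.1%), near the 22.4% and 21.5% of all genes tested, median 0.06, or 6 and 4 with the sunitinib libraries in the fit. RRAGD, a GTPase that links lysosomes to mTORC1, read 16.8, 16.4 and 16.7 CPM in the DMSO libraries and 33.4, 29.5 and 34.4 CPM with compound 32 (0.96 ± 0.082), and the initiating kinase ULK1 changed by 0.58 ± 0.056. The receptor SQSTM1 fell (-0.21 ± 0.032), without a call in the fit with the sunitinib libraries. ATG7 fell too (-0.39 ± 0.059), and its exons overlap VGLL4 (0.79 ± 0.057). By edgeR, the largest adjusted p of APAF1, RRAGD, ULK1, SQSTM1 and ATG7 was 7.8e-07, that of SQSTM1.

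Smaller lists included genes of pH, drug transport, microtubules and the clock. Of 17 genes of pH and bicarbonate 9 rose (52.9%, against 22.4% of all genes tested) and 2 fell, median 0.16. The calls were 3 higher and 1 lower with the sunitinib libraries in the fit. SLC9A3R1, a scaffold of membrane transporters, read 79.9, 82.3 and 76.7 CPM in the DMSO libraries and 110.2, 116 and 118 CPM with compound 32 (0.53 ± 0.048). Lower were SLC4A8 (-0.64 ± 0.16) and SLC16A7 (-0.22 ± 0.069), which was not called without DMSO replicate 1 or compound 32 replicate 3. Of 23 ABC and platinum transporters 5 rose and 1 fell, median 0.05, with ABCC5 at 0.44 ± 0.046 and ABCB10, of the mitochondrial inner membrane, at 0.46 ± 0.074. Of 34 tubulins and microtubule factors 14 rose and 8 fell, median 0.05. TUBA1A rose (0.40 ± 0.046), the kinesin KIF1C rose (0.25 ± 0.036), and TUBA1C (-0.37 ± 0.032) and TUBB6 (-0.22 ± 0.032) fell. Exons of TUBA1A overlap TUBA1C, and tubulin genes are similar in sequence. With the sunitinib libraries in the fit 6 tubulin genes rose and 5 fell, KIF1C was not called, and 3 ABC transporters rose. Of 19 clock genes 7 rose and 4 fell, median 0.15, or 2 lower at a mean of 5 CPM or more and 2 with the sunitinib libraries in the fit, when ARNTL2 was not called. NFIL3, a repressor of clock output, rose (0.64 ± 0.097), as did ARNTL2 (0.21 ± 0.042), and NR1D2, of the REV-ERB family, read 119.6, 108 and 106 CPM in the DMSO libraries and 71.3, 73.0 and 65.7 CPM with compound 32 (-0.67 ± 0.052). RORB (-1.71 ± 0.50) was not called without DMSO replicate 2. None of the adjusted p-values from edgeR for the genes named was above 0.00894, that of SLC16A7.

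**Figure D4:**
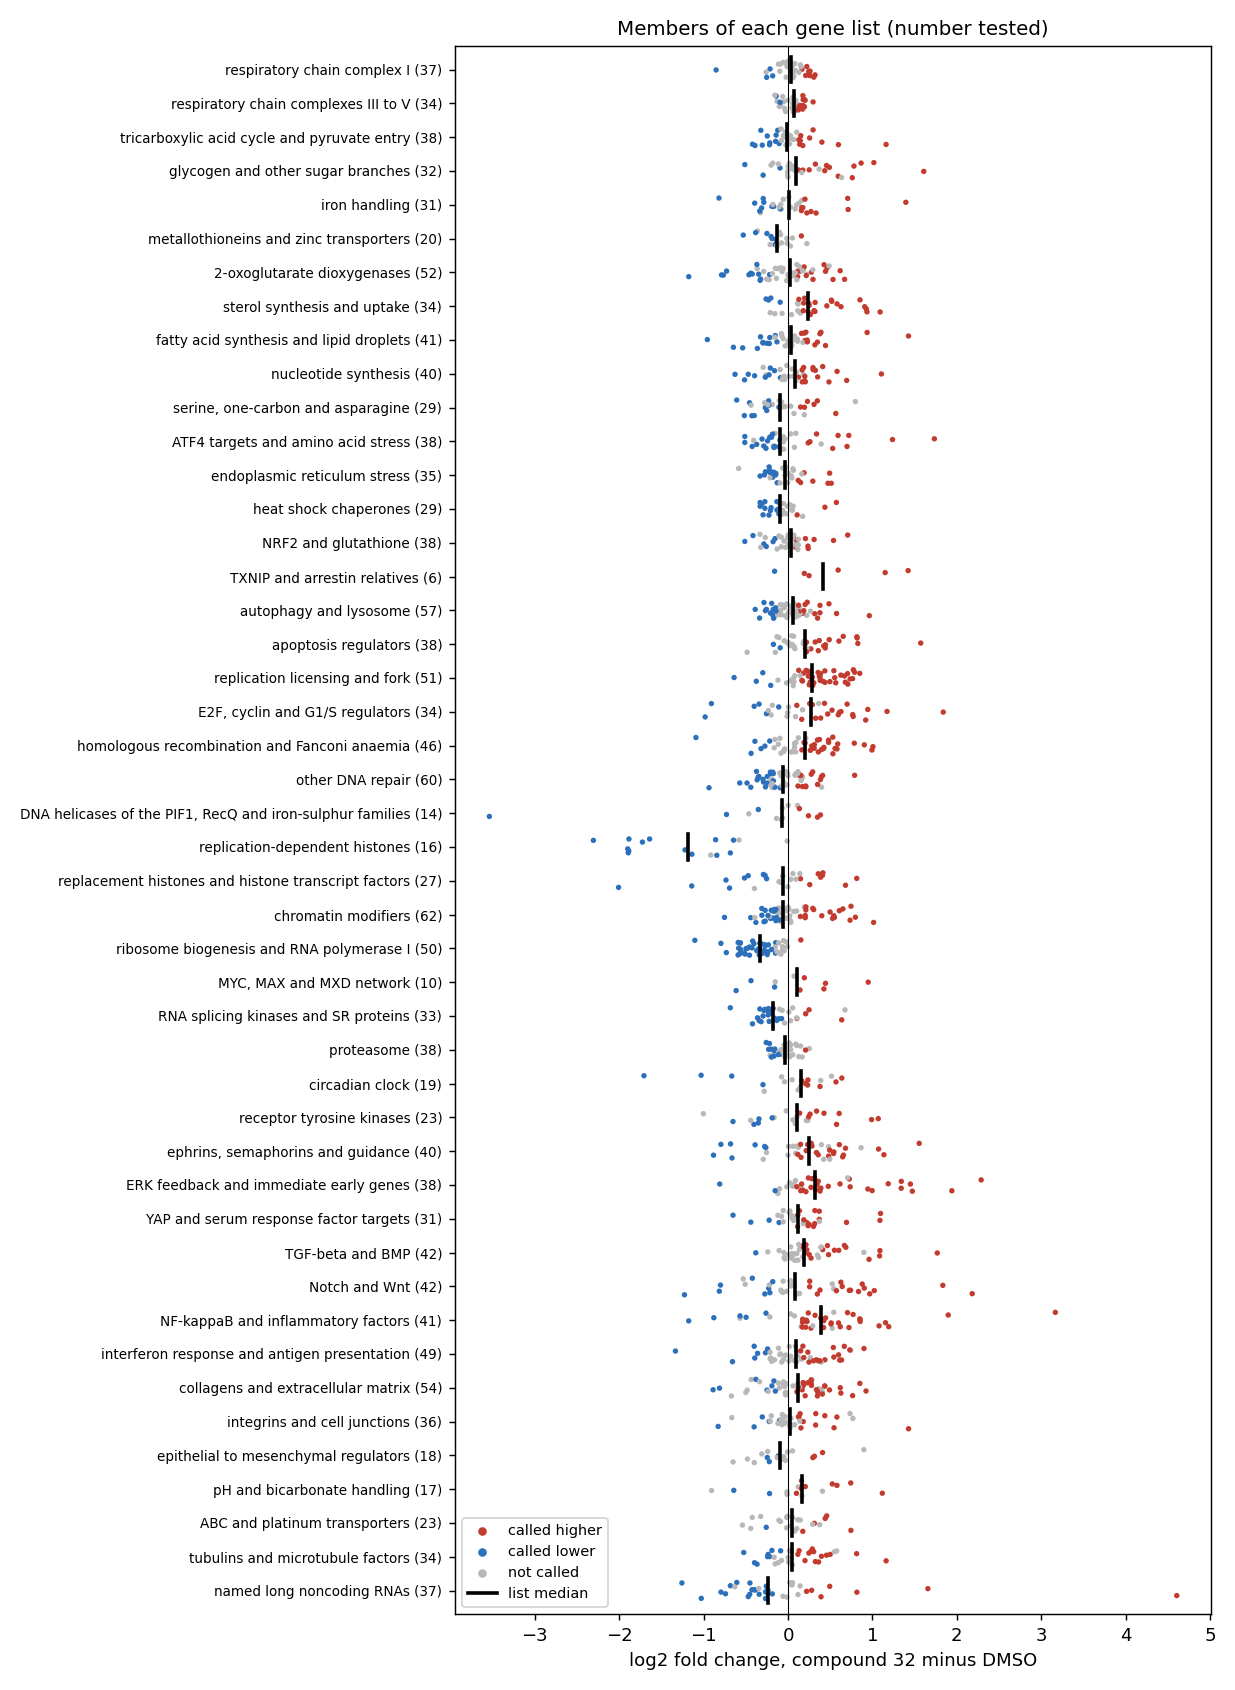
Log2 fold change (compound 32 minus DMSO) of each tested member of 46 gene lists outside hypoxia, mitosis and p53, with the number tested in parentheses. Each point is a gene, red if called higher, blue if called lower and grey if not called. The black bar is the list median, which is -1.18 for replication-dependent histones, -0.33 for ribosome biogenesis and 0.39 for NF-kappaB and inflammatory factors.

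The most highly counted genes among those changed at least 2-fold were from the lists set aside at the start. By CPM, which is not corrected for gene length, the 5 called genes with the highest mean among those changed at least 2-fold were LDHA, PGK1, CDKN1A, SLC2A1 and NDRG1, and all 5 rose. LDHA, which reduces pyruvate to lactate, read 1211, 1253 and 1243 CPM in the DMSO libraries and 3198, 3128 and 3226 CPM with compound 32 (1.37 ± 0.030). The inhibitor CDKN1A read 274, 281 and 287 CPM in the DMSO libraries and 654, 677 and 719.7 CPM with compound 32 (1.29 ± 0.036). No gene that fell by 2-fold was among these 5.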

How the data were processed

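The authors deposited 1 table of raw, whole-number read counts that covers 58735 genes and 9 libraries. Per the submitters' processing notes, fastp, HISAT2 2.0.5, featureCounts, DESeq2 and edgeR were used, with no roles given, and a mouse build is listed beside hg38. All 58735 gene identifiers, names and coordinates were those of GENCODE 29 (GRCh38). How reads were assigned by strand or when they mapped to several genes is not stated in these sources. Columns were matched to samples by their names.

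The 3 compound 32 and 3 DMSO libraries alone were fitted, since the comparison takes only these. Genes were kept by edgeR's filterByExpr (14517 kept, and 29257 genes had no count in the 6 libraries), scaled by TMM factors between 0.997 and 1.005, and tested with edgeR 4.0.16 (R 4.3.3), the quasi-likelihood F test with robust estimation, on 4 residual degrees of freedom. Calls are at a Benjamini-Hochberg adjusted p under 0.05 over all genes tested. CPM values use the TMM factors, and the standard error is the log2 fold change divided by the square root of F. In counts simulated from these libraries, 67 genes were changed 1.5-fold, 67 genes 2-fold and 66 genes 4-fold. The fit recovered 74.6%, 85.1% and 98.5% of these, and called 8 of 14317 unchanged genes. Far fewer genes were changed than the 43.9% called in the data, so these rates need not hold for the comparison itself. Replicates of a group differed by more than sampling noise (chi-square per degree of freedom 1.86 to 3.22, against 23.7 to 27.4 between groups), so no library was counted as a copy.

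The comparison, its 54 gene lists and its rules were chosen with earlier results of these data known, so lists are described by counts and medians and not tested. Of 1986 listed symbols 1984 were in the table and 1740 passed the filter; lists share members. Named genes are the 15 protein-coding genes that rose most and the 15 that fell most (called, mean of at least 5 CPM, no overlap, outside the hypoxia, mitosis and p53 lists), the 2 members of each other list with the smallest p in each direction, the 5 called genes of highest mean CPM with at least a 2-fold change, and 3 long noncoding RNAs in each direction. Some genes that this rule picks are not reported here. For some other genes named, the text says that they were picked with their values known. Also named outside this rule are ATF4, BBC3, PMAIP1, FAS, TNFRSF10B, further members of the marker lists and genes with overlapping exons. Exon overlaps with another tested gene are given for some of the genes named. Other named genes also have such overlaps, which are not given. Alternatives were other scalings and filters, DESeq2 1.42.0, limma voom (limma 3.58.1), all 9 libraries, a block for the replicate number, a stricter threshold and leaving out each library.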

Additional observations from a re-analysis of the deposited data

How the results depend on the processing

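Under DESeq2 size factors, upper-quartile factors, library totals alone, no filter on low counts, limma voom, DESeq2 and an adjusted p under 0.01, the counts of genes called higher and lower stayed within 1.5 times of the values reported. They ran from 2517 higher and 2342 lower at an adjusted p under 0.01 to 3252 and 3105 with limma voom, apart from the scalings, which gave up to 3236 and 3177. With all 9 libraries in the fit 1830 genes were higher and 1571 lower, and the cause was not tested. With a mean of at least 5 CPM required, 10557 genes were tested, and 2909 were called higher and 2775 lower. By 2-fold or more 121 rose and 39 fell, against 337 and 184 of the 14517 genes tested in the main fit. Leaving out each library in turn gave 2831 to 2970 genes higher, 2751 to 2999 lower, 335 to 394 higher by 2-fold and 175 to 209 lower by 2-fold. No setting gave a called gene the opposite sign, and the scalings moved the median of all genes by less than 0.01 on the log2 scale. Of 213 named genes 36 were not called with all 9 libraries, 4 with DESeq2, 2 with no filter on low counts, 7 at an adjusted p under 0.01 and 3 to 6 when a library was left out; all 213 were called under limma voom and the 3 scalings. With a replicate block for the number in the sample names 3145 genes were higher and 3014 lower, 335 and 182 of them by 2-fold, and the block ended the calls of ATP5PB and CLDN5. Deviations from the group means of libraries with the same number correlated at 0.057, -0.108 and -0.077 over genes, so the numbers were not taken to pair the samples. Fewer of the scarcest genes were called: among tested genes with a mean from 0.413 to 4.17 CPM, 11.1% were called higher and 7.82% lower, against 28.2% and 32.7% among those from 65.6 CPM upwards. The part of depth in this was not tested.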

Other observations

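Transcription factor families differed in how many of their genes were called, by the family annotation in the deposited table. Of 40 tested bZIP genes 18 rose (45%) and 7 fell, of 22 forkhead genes 10 rose and 6 fell, and of 45 bHLH genes 16 rose and 8 fell. The largest family, C2H2 zinc fingers, rose in 69 and fell in 86 of 480 cases (14.4% and 17.9%). Of 12 THAP genes 1 rose and 4 fell, and of 21 MYB genes 5 rose and 8 fell. Among smaller families, 5 of 10 E2F genes rose (50%) and 2 fell, and 4 of 8 RXR-like genes rose (50%) and 1 fell. In the GATA zinc fingers 3 of 9 rose and 4 fell (44.4%). Not every family is given here. Over all genes tested 22.4% rose and 21.5% fell.

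By class of gene, 24.7% of 12172 protein-coding genes rose and 23.5% fell, against 10.3% and 7.26% of 758 pseudogenes. By chromosome, the gap between the shares called higher and lower was widest on chromosome 22 (29.2% and 13.3% of 339 genes), followed by the mitochondrial genome (40% and 26.7% of 30) and chromosome 19 (23.5% and 13.6% of 942). These shares are descriptions, and differences in level and length between the classes were not adjusted for.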
